A study of Mus musculus with 15 samples.

Results

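Tumour spheres that had received only the solvent dimethyl sulfoxide (DMSO) are described here on 6 of the 15 arrays of a mouse series, all of mammospheres, which are clusters that mammary cells form when they cannot attach. The arrays were chosen by their titles alone: all 3 DMSO arrays whose title carries the code JAH, and all 3 whose title carries the code JHO. In both sets the spheres had been started from primary tumours of the mammary gland of FVB/N mice (genotype WAPCre-DNbcatn;HGF), had grown for 7 days from single cells, were kept for 24 h with DMSO, and gave 250 ng of total RNA per array. The other 9 arrays hold spheres of the same genotype given PHA or ICG (code JAH, 3 arrays each) or PHA+ICG (code JHO, 3 arrays), which the series text calls Wnt and MET pathway inhibitors without naming doses. The genotype was therefore shared by all groups, and no array without it is among the 15.

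The series used DMSO arrays as the reference for inhibitors. Setting the DMSO arrays of both sets side by side asks how alike the untreated spheres were. The labels do not say what the title codes stand for, nor whether replicates were separate cultures, tumours or animals. The p-values here therefore rest on how far arrays of a set spread, and that spread may be technical. Tumour, culture, RNA handling and array processing cannot be told apart in any difference between JAH and JHO, since each code is 1 set of arrays.

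As background, Wap is a milk protein gene, and its promoter is active in the secretory luminal cells of pregnancy and lactation, so a transgene under it acts first in that cell type. Mammary epithelium has an inner luminal layer, which can make milk, and an outer basal layer, and tumours with active Wnt signalling often mix both and can form keratinised, squamous patches. Spheres grown from tumour cells can also carry fibroblasts and macrophages of the tumour's stroma. HGF is the ligand of the MET receptor, and β-catenin is the protein that carries a Wnt signal to the genome. Cells make cholesterol through the mevalonate pathway, whose genes are switched on together by SREBP2 when sterols run short.

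All values below are log2 signals, in replicate order 1, 2, 3 within each set, and each gene stands for 1 probe set. A difference is the mean of the 3 JHO arrays minus the mean of the 3 JAH arrays on the log2 scale, with the standard error (SE) of the limma fit, and a gene is called where its Benjamini-Hochberg adjusted p over all 18193 genes is under 0.05. In bulk RNA, fewer cells of a type and less RNA per cell cannot be told apart.

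The arrays of a set resembled each other, with 1 exception. JAH arrays correlated with each other at r from 0.996 to 0.998 over all genes, with at most 77 genes 2-fold or more apart. JHO replicates 2 and 3 correlated at 0.996, with 18 such genes, whereas JHO replicate 1 differed 2-fold or more from them in 891 and 845 genes (r = 0.979 and 0.980). Between the sets, r lay between 0.953 and 0.960, and 1676 to 1924 genes differed 2-fold or more. The median SD of a gene was 0.0968 in JAH and 0.181 in JHO, 1.87 times as large. Because JHO replicate 1 stood apart, results that rest on it are given with and without it. That array was singled out from these same values. JHO replicates 2 and 3 lie close together, so leaving it out shrinks the spread that the p-values rest on. Counts and p-values without it describe how results depend on that array and are not separate support for a difference.

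Control probe sets also separated the sets. The spiked-in poly-A RNAs lys, phe and thr, which are added to a sample's RNA before labelling, averaged 14.15, 14.20 and 14.23 in JAH and 12.74, 12.69 and 12.74 in JHO over 18 probe sets. Their difference of -1.47 had an exact permutation p of 0.1 (two-sided), the smallest that 3 arrays against 3 allow. The fourth such RNA, dap, differed by -0.12 (exact p = 0.1). The RNAs spiked in at hybridisation differed by -1.58 on the first version of their probe sets (exact p = 0.1) and by 0.08 on the r2 version (exact p = 0.6). The 3′ to 5′ difference of Actb, a sign of RNA integrity, was 0.447 ± 0.124 (SD, n = 3) in JAH and 0.590 ± 0.111 in JHO (exact p = 0.3). A list of 24 genes of other tissues, such as liver, retina, pancreas and heart, averaged 4.60 in JAH and 4.67 in JHO (exact p = 0.3), and 1 of its genes was called, lower in JHO, except without JAH replicate 2 or 3. The median of all probe sets was 5.74, 5.74 and 5.76 in JAH and 5.78, 5.86 and 5.88 in JHO (exact p = 0.1). The 18S rRNA probe sets differed by 0.94 (exact p = 0.2). The 3′ to 5′ difference of Gapdh and the interquartile range of all probe sets had exact p of 0.4 and 0.6. After adjustment over the 10 such values compared, no p was below 0.25. The part of these handling values in the results below was not tested.

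**Figure D1:**
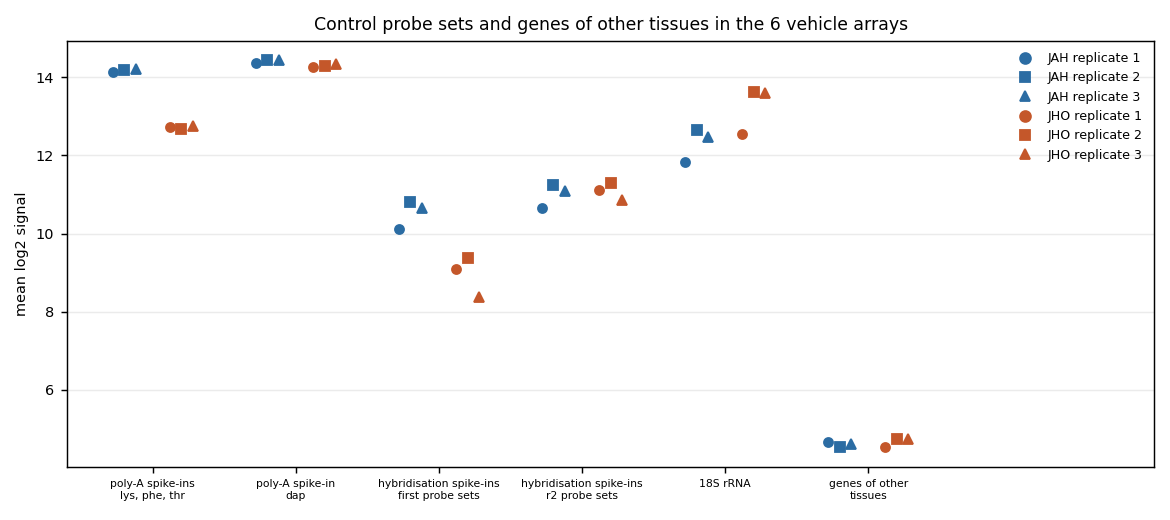
Mean log2 signal of control probe sets and of genes of other tissues (vertical axis) in each of the 6 DMSO arrays; blue marks are JAH, orange marks JHO, and circle, square and triangle are replicates 1, 2 and 3. The lys, phe and thr spike-ins lie at 14.15 to 14.23 in JAH and at 12.69 to 12.74 in JHO, while the genes of other tissues average 4.60 in JAH and 4.67 in JHO.

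The untreated spheres of the sets differed widely. Of 18193 genes, 4755 were called, which is 26.1%: 2487 were higher in JHO (13.7%) and 2268 were lower (12.5%). Of these, 756 were at least 2-fold higher and 745 at least 2-fold lower, and 32 were at least 16-fold higher and 20 at least 16-fold lower. The split depends on scaling, since quantile normalization gave 2084 higher and 2875 lower, and median centring 1890 and 2826. Without JHO replicate 1 the fit called 7844 genes (43.1%, with 24.4% higher and 18.8% lower), and among them were 2486 of the 2487 and 2267 of the 2268. Leaving out any other single array gave 2772 to 3733 calls. All 3 JHO arrays lay above all 3 JAH arrays in 23.8% of genes and below them in 20.1%, together 43.9%. With a background this high, the share of called members of a list is read below against 13.7% and 12.5%, and its median difference against 0.06 over all genes. This background includes genes of low signal. A fit of only the 9096 genes above the median level called 2072 higher and 1992 lower, which are larger shares. List shares only somewhat above 13.7% or 12.5% are therefore not set apart from well-expressed genes.

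**Figure D2:**
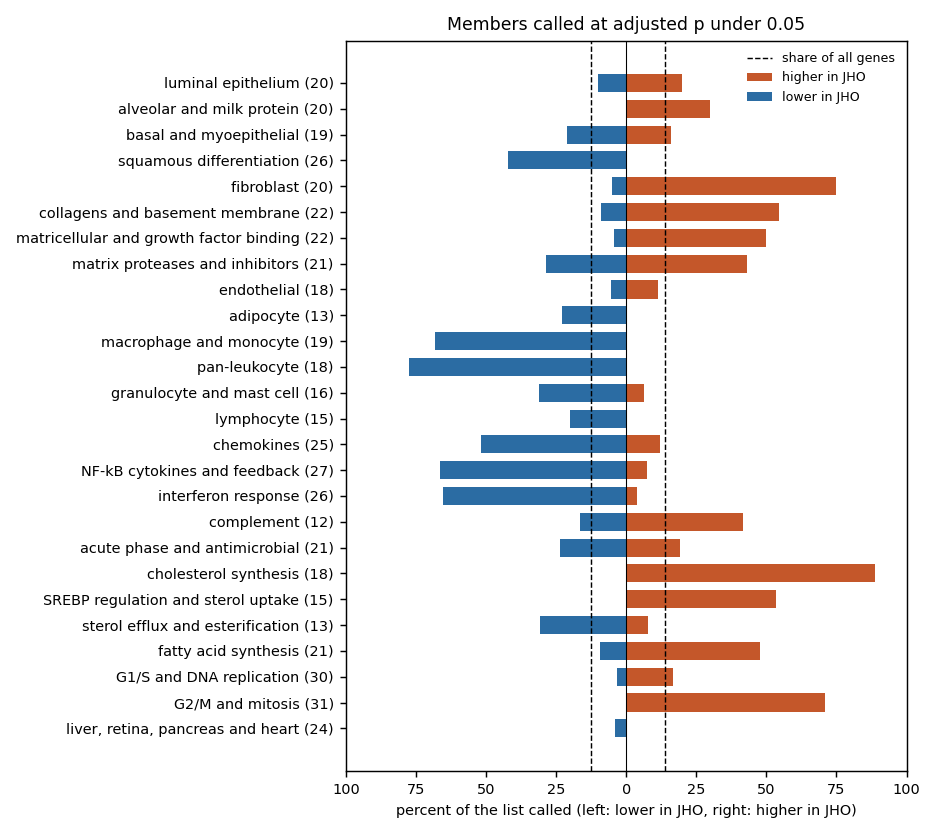
Percent of the measured members of each gene list (number in brackets) called at adjusted p under 0.05, to the right where higher in JHO and to the left where lower; dashed lines mark the shares of all genes, 13.7% and 12.5%. Cholesterol synthesis (16 of 18 higher), fibroblast (15 of 20) and G2/M genes (22 of 31) reach farthest to the right, pan-leukocyte (14 of 18 lower) and macrophage genes (13 of 19) farthest to the left.

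Luminal epithelial genes were present in both sets, and 14 of 20 markers were not called. All JHO arrays lay above all JAH arrays in 10 of the 20 and below them in 2, against 23.8% and 20.1% of all genes. Of 20 luminal markers, 4 were higher and 2 lower in JHO (median difference 0.25), where leaving out JAH replicate 1 or 2 left 1 of the lower ones. Krt18, a keratin of simple epithelia, read 9.56, 9.57 and 9.46 in JAH and 10.23, 10.22 and 10.38 in JHO, a difference of 0.75 ± 0.10 (adjusted p = 0.00162). Its partner Krt8 read 9.74 in all 3 JAH arrays and 10.51, 10.21 and 10.37 in JHO (0.62 ± 0.11, adjusted p = 0.0055). For both keratins all JHO arrays lay above all JAH arrays. Krt19 differed by 1.43 ± 0.24 (adjusted p = 0.0049). The adhesion genes Epcam (0.49 ± 0.19, adjusted p = 0.103) and Cdh1, which encodes E-cadherin (0.58 ± 0.22, adjusted p = 0.101), were not called.

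Milk protein genes showed the widest gap among epithelial genes. Csn3, which encodes κ-casein, read 5.39, 5.42 and 5.04 in JAH and 12.52, 10.47 and 10.57 in JHO. JHO replicate 1 was the highest array (5.90 ± 0.51, adjusted p = 0.000286, and 5.24 without it). Csn1s1, an α-casein gene, read 5.68, 5.21 and 5.13 against 10.70, 8.14 and 8.38 (3.73 ± 0.62, adjusted p = 0.00489; 2.92 without JHO replicate 1). Csn2, the β-casein gene, read 6.37, 5.67 and 5.54 in JAH and 13.01, 7.19 and 7.00 in JHO, so that 1 array carried most of its difference of 3.21 ± 1.47 (adjusted p = 0.158). Without that array the difference was 1.24 (adjusted p = 0.00311). The milk gene Wfdc18 differed by 2.51 ± 0.47 (adjusted p = 0.00751; 1.90 without JHO replicate 1). Ltf, which encodes the iron-binding milk and neutrophil protein lactoferrin, differed by 2.71 ± 0.39 (adjusted p = 0.00248).

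In all, 6 of the 20 alveolar and milk genes were higher and none was lower in JHO (median 0.66); without JHO replicate 1 it was 12, and without any other array 4 or 5. Elf5, the transcription factor of the alveolar lineage, read 4.93, 5.08 and 5.29 in JAH and 8.91, 6.24 and 6.31 in JHO. All JHO arrays were higher, but the gene was not called (2.05 ± 0.66, adjusted p = 0.0589); without JHO replicate 1 it was (1.17, adjusted p = 0.000149). Wap itself, whose promoter drives Cre in these mice, read 5.34, 5.08 and 5.38 in JAH and 6.77, 5.28 and 5.46 in JHO, with overlapping groups (adjusted p = 0.3).

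Hormone receptor genes set JHO replicates 2 and 3 apart from the other 4 arrays. Pgr, the progesterone receptor, read 3.81, 3.67 and 3.64 in JAH and 4.46, 7.12 and 6.86 in JHO. Its difference of 2.44 ± 0.63 (adjusted p = 0.0276) was 3.28 without JHO replicate 1 (adjusted p = 3.87e-07), and the call was lost without any one of the other 5 arrays. Esr1, the oestrogen receptor, read 5.71, 5.32 and 5.59 against 5.70, 6.60 and 6.69 and was not called (adjusted p = 0.0669; 0.000276 without JHO replicate 1). Tnfsf11, which encodes RANKL, the signal that progesterone-sensing cells send to their neighbours, was lower in JHO (-1.59 ± 0.21, adjusted p = 0.00194). Of the 10 hormone-sensing genes 2 were higher (Pgr and the transcription factor gene Tbx3) and 1 lower, but none was higher without any one array other than JHO replicate 1, and 6 were without that one.

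Basal genes went both ways. Of 19 basal and myoepithelial genes, 4 were lower and 3 higher in JHO (median 0.09), and 6 each way without JHO replicate 1. Krt17 read 9.45, 9.87 and 9.75 in JAH and 5.55, 6.79 and 7.16 in JHO (-3.19 ± 0.38, adjusted p = 0.00116). Krt14 (-1.22 ± 0.18, adjusted p = 0.00278) and Krt5 (-0.48 ± 0.10, adjusted p = 0.00987), the keratin pair of basal cells, were lower too. Dst, a plakin that anchors keratin at hemidesmosomes, differed by -1.74 ± 0.13 (adjusted p = 0.00014). The higher genes were Cav1, Mylk and Tagln, 1 of which was called without any single JAH array. Tagln, which encodes an actin-binding protein, read 5.85, 5.68 and 5.76 in JAH and 6.06, 7.72 and 7.61 in JHO. Its call (1.36 ± 0.41, adjusted p = 0.0455) held without JHO replicate 1 (1.90, adjusted p = 3.01e-06) and was lost without any other array. Acta2, smooth muscle actin, was not called (1.02 ± 0.34, adjusted p = 0.0635; 0.000103 without JHO replicate 1). Trp63, the master regulator of basal cells, read between 4.24 and 4.59 in all 6 arrays, with overlapping groups (0.05 ± 0.13), and its sign turned under quantile normalization.

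Genes of squamous differentiation were lower in JHO. Of 26 such genes 11 were lower and none higher (median -0.65). Without JHO replicate 1, 13 were lower and 4 higher, and without a JAH array 6 or 7 were lower. Klk6, a secreted serine protease, read 11.37, 11.74 and 11.86 in JAH and 6.30, 8.89 and 8.86 in JHO (-3.64 ± 0.65, adjusted p = 0.00648; -2.78 without JHO replicate 1). Sbsn, which encodes suprabasin of the upper epidermis, read 11.66, 11.74 and 11.73 against 8.95, 9.75 and 9.60 (-2.28 ± 0.20, adjusted p = 0.000315). Krt6a, a keratin of wounded and hyperplastic epithelium, read 11.74, 11.76 and 11.86 against 8.25, 10.48 and 9.89. In each of these genes JHO replicate 1 was the lowest array. The call of Krt6a (-2.25 ± 0.50, adjusted p = 0.0158; -1.60 without JHO replicate 1) was lost without any of the 3 JAH arrays.

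Most fibroblast genes were higher in JHO. Of 20 fibroblast markers, 15 were higher and 1 was lower, with a median difference of 1.69, and the count was 13 to 15 without any 1 array. The mean of the list was 9.56, 10.15 and 10.14 in JAH and 11.83, 11.56 and 11.54 in JHO. Dpt, which encodes the matrix protein dermatopontin, read 5.32, 5.82 and 5.98 in JAH and 11.62, 10.66 and 10.76 in JHO (5.30 ± 0.28, adjusted p = 3.84e-05), a 39.5-fold difference. Fap, fibroblast activation protein, read 5.61, 6.49 and 6.57 against 9.73, 9.42 and 9.46 (3.32 ± 0.25, adjusted p = 0.000173). Col3a1, the gene of fibrillar collagen III, read 10.26, 11.11 and 11.33 against 14.38, 13.69 and 13.72 (3.03 ± 0.31, adjusted p = 0.000569). Col1a1 differed by 2.20 ± 0.29 (adjusted p = 0.00169), and Col6a1 and Col6a2, chains of the beaded collagen VI, by 3.00 ± 0.31 and 3.03 ± 0.28. JAH replicate 1 was the lowest array for each of these collagens.

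Not every fibroblast marker took part. Dcn, which encodes the proteoglycan decorin, read 14.25, 14.24 and 14.27 in JAH and 14.42, 14.12 and 14.08 in JHO, near the top of the scale in all 6 arrays (adjusted p = 0.807). Pdgfra, the PDGF receptor that marks fibroblasts, read 11.21, 11.35 and 11.35 against 12.07, 11.58 and 11.23, with overlapping groups (0.32 ± 0.20, adjusted p = 0.291). Thy1, a surface protein of many fibroblasts, was the list's 1 lower gene (-1.61). Vim, the intermediate filament of mesenchymal cells, read 14.04, 13.91 and 13.97 against 14.21, 14.30 and 14.37. Its call (0.32 ± 0.10, adjusted p = 0.0475) was lost without any one array other than JHO replicate 1.

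Matrix genes outside the fibroblast list showed the same tilt, with a few large differences. Of 22 collagens and basement membrane genes, 12 were higher and 2 lower in JHO (median 0.72), the lower ones being the proteoglycan genes Agrn (-1.37) and Col18a1 (-0.66). The call of Col18a1 was lost without JAH replicate 2 or 3 or JHO replicate 2 or 3. Col11a1, a minor fibrillar collagen, read 3.90, 4.13 and 3.93 in JAH and 7.19, 9.53 and 9.46 in JHO (4.74 ± 0.58, adjusted p = 0.00125; 5.51 without JHO replicate 1). Col4a5, a chain of the basement membrane's collagen IV, read 4.24, 5.10 and 4.45 against 8.99, 8.09 and 8.66 (3.98 ± 0.29, adjusted p = 0.000135). Col15a1 differed by 3.15 ± 0.11 (adjusted p = 7.23e-06). Nid2, a nidogen that links laminin to collagen IV, read 4.75, 5.28 and 5.06 against 10.17, 7.29 and 7.22. For Nid2 it was JHO replicate 1 that was highest (3.20 ± 0.73, adjusted p = 0.0174; 2.23 without it), and the call was lost without any of the JAH arrays.

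Among 22 matricellular and growth factor binding genes, 11 were higher and 1 lower (median 0.65), namely Tnc, which encodes tenascin C (-1.81); without JHO replicate 1, 3 were lower. Efemp1, an elastic fibre protein of the fibulin family, read 5.24, 5.08 and 5.74 in JAH and 13.12, 11.59 and 11.94 in JHO, a 116-fold difference (6.86 ± 0.38, adjusted p = 4.66e-05). Igfbp6, which binds insulin-like growth factor 2, read 6.51, 6.35 and 6.32 against 11.11, 10.56 and 10.52 (4.34 ± 0.17, adjusted p = 1.19e-05). Ccn2, a secreted target of TGFβ and YAP also known as CTGF, differed by 2.56 ± 0.27 (adjusted p = 0.000721). Postn, which encodes periostin and is also in the fibroblast list, read 10.34, 11.47 and 11.22 against 13.02, 13.43 and 13.50 (2.31 ± 0.29, adjusted p = 0.00147). Sparc differed by 1.70 ± 0.19 (adjusted p = 0.000818). In each of these 5 genes all JHO arrays lay above all JAH arrays, as in 23.8% of all genes. For Efemp1 this was a condition of naming it among the 12 highest genes.

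Genes of matrix-degrading enzymes, their inhibitors and collagen cross-linking enzymes went both ways, and proteases were among the higher genes as well as the lower. Of 21 genes, 9 were higher and 6 lower in JHO, and 5 of the 6 were matrix metalloproteinases: Mmp13, Mmp9, Mmp12, Mmp10 and Mmp3, with Mmp10 losing its call without JAH replicate 1 or 2. The collagenase gene Mmp13 read 12.97, 12.93 and 13.00 in JAH and 8.99, 6.97 and 7.15 in JHO (-5.27 ± 0.49, adjusted p = 0.00038; -5.91 without JHO replicate 1). The macrophage elastase Mmp12 read 13.51, 13.29 and 13.28 against 10.76, 9.68 and 9.49 (-3.38 ± 0.31, adjusted p = 0.000373). Mmp9, a gelatinase, differed by -3.83 ± 0.53 (adjusted p = 0.00219; -4.46 without JHO replicate 1), and Mmp3, stromelysin, by -1.42 ± 0.09 (adjusted p = 8.77e-05). In the other direction, the collagen cross-linking enzyme Lox read 9.73, 10.23 and 10.44 in JAH and 13.66, 13.54 and 13.76 in JHO (3.52 ± 0.18, adjusted p = 3.65e-05). Timp3, a matrix-bound inhibitor of metalloproteinases, read 8.17, 8.99 and 8.62 against 12.94, 11.40 and 11.34 (3.30 ± 0.43, adjusted p = 0.00174).

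Leukocyte genes were lower in JHO, and JHO replicate 1 lay between JAH and the other JHO arrays. Of 19 macrophage and monocyte genes, 13 were lower and none higher (median -2.27), and of 18 pan-leukocyte genes 14 were lower and none higher (median -2.74). The macrophage list averaged 10.51, 10.89 and 10.94 in JAH and 9.73, 7.99 and 7.94 in JHO. Without JHO replicate 1, 18 of 19 and 17 of 18 genes were lower. Without JAH replicate 1, 2 or 3 the macrophage count was 9, 7 and 7 and the pan-leukocyte count 8 each time; without JHO replicate 2 they were 7 and 9, and without JHO replicate 3 both were 8.

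Adgre1, whose product is a surface antigen of mouse macrophages, read 10.59, 10.60 and 10.62 in JAH and 10.15, 7.28 and 7.46 in JHO. JHO replicate 1 was thus close to JAH for this gene. The difference was -2.30 ± 0.69 (adjusted p = 0.0471) and -3.23 without JHO replicate 1 (adjusted p = 1.84e-07); without any other array the call was lost. Ptprc, the pan-leukocyte phosphatase CD45, read 10.90 or more in JAH and 10.04, 6.79 and 6.64 in JHO (-3.12 ± 0.83, adjusted p = 0.03; -4.23 without JHO replicate 1, and not called without any other array). Cd68, a lysosomal protein of phagocytes, read 13.41, 13.41 and 13.45 against 12.08, 9.57 and 9.34 (-3.09 ± 0.66, adjusted p = 0.0128; -3.97 without JHO replicate 1).

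Some genes that macrophages express were low in all 3 JHO arrays. Of those below, Clec10a, Pf4 and Cd36 are outside the macrophage list and were named as part of the 12 lowest genes without overlap. Their low values in JHO were thus a condition of naming them and are not a result about macrophage markers. Fcgr1, a high-affinity receptor for IgG, read 8.70, 9.07 and 9.24 in JAH and 4.98, 4.73 and 4.88 in JHO (-4.14 ± 0.15, adjusted p = 1.01e-05). Clec10a, a galactose-binding lectin of macrophages and dendritic cells, read 11.11, 11.26 and 11.14 against 6.63, 5.91 and 6.04 (-4.98 ± 0.19, adjusted p = 1.01e-05). Pf4, the chemokine platelet factor 4, read 13.01, 13.29 and 13.26 against 7.12, 7.51 and 7.46 (-5.83 ± 0.14, adjusted p = 1.63e-06). For Fcgr1, Clec10a and Pf4, JHO replicate 1 lay near the other JHO arrays and far from JAH. Cd36, a scavenger and fatty acid receptor of macrophages and fat cells, differed by -5.25 ± 0.35 (adjusted p = 0.000109). Lyz2, lysozyme M, read 14.45, 14.51 and 14.56 against 14.67, 12.98 and 13.01 and was not called (adjusted p = 0.145; 6.81e-06 without JHO replicate 1).

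Granulocyte, mast cell and lymphocyte genes gave fewer calls. Of 16 granulocyte and mast cell genes, 5 were lower and 1 higher in JHO, and of 15 lymphocyte genes 3 were lower (medians -0.10 and -0.01). S100a9, an alarmin of neutrophils that keratinised epithelium also makes, read 12.80, 12.54 and 12.55 in JAH and 4.46, 6.48 and 6.19 in JHO, a 121-fold difference (-6.92 ± 0.48, adjusted p = 0.000117; -6.30 without JHO replicate 1). Its partner S100a8 read 13.79, 13.66 and 13.75 against 11.87, 12.41 and 12.35, a much smaller difference (-1.52 ± 0.16, adjusted p = 0.000583). Mcpt8, a protease of basophils, was the 1 higher gene, of 3 without JHO replicate 1 (2.53 ± 0.26, adjusted p = 0.00057). The mast cell proteases Tpsb2 and Mcpt4 were lower by -1.99 ± 0.16 and -1.96 ± 0.14. Cd3e, a chain of the T cell receptor complex, read between 6.26 and 6.57 in all 6 arrays, with overlapping groups.

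Markers of other stromal types differed less. Of 18 endothelial genes, 2 were higher and 1 (Vwf) lower (median 0.08), and of 12 pericyte and smooth muscle genes 2 were higher, Cspg4 (1.23) and Ndufa4l2 (1.84). Among the endothelial genes 1 was higher without JAH replicate 2, 4 were without JHO replicate 1, and 2 were lower without JHO replicate 1 or 2. Pecam1, the endothelial adhesion molecule CD31, read between 3.85 and 4.41 in all 6 arrays with overlapping groups. Flt1, a VEGF receptor, was the largest exception, at 6.99, 6.94 and 7.48 in JAH and 9.13, 10.04 and 9.77 in JHO (2.51 ± 0.25, adjusted p = 0.000554). Of 13 adipocyte genes, 3 were lower, 1 without any single JAH array and 5 without JHO replicate 1. Fabp4, a fatty acid binding protein of fat cells and macrophages, was among them (-1.02 ± 0.17, adjusted p = 0.00524), and Adipoq, which encodes adiponectin, read between 3.37 and 4.65 and was not called (adjusted p = 0.145).

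**Figure D3:**
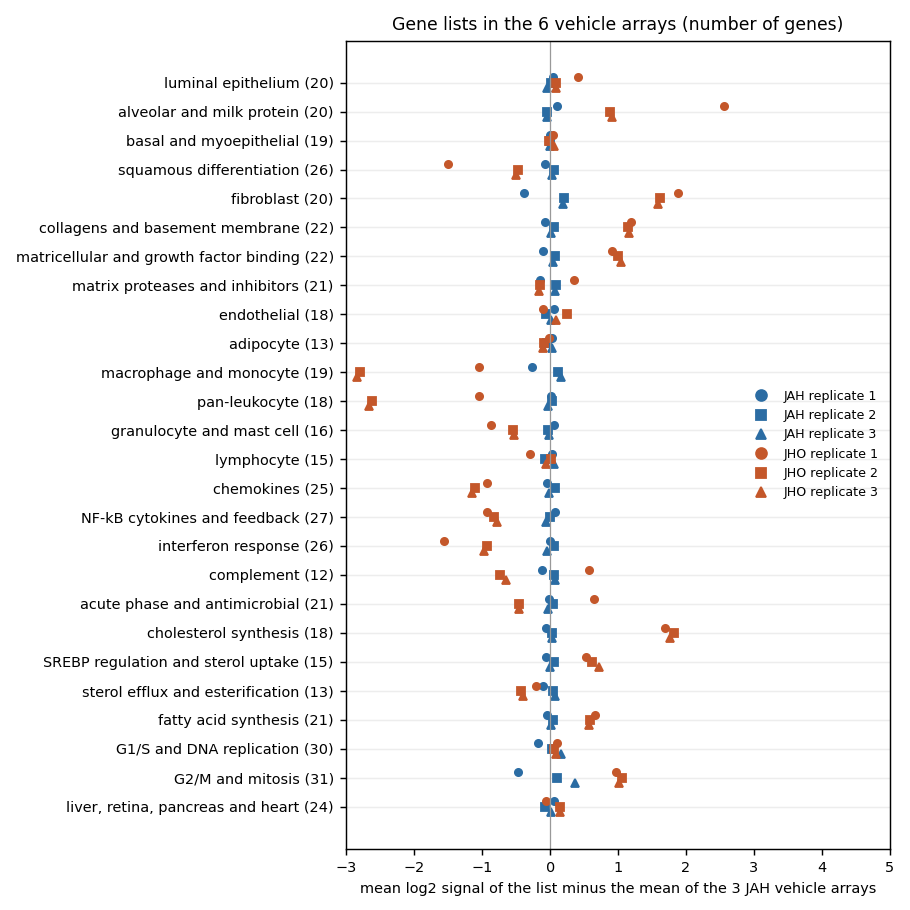
Mean log2 signal of each gene list in each of the 6 DMSO arrays, minus the mean of the 3 JAH arrays (horizontal axis); the number of genes is in brackets, and colour and shape mark set and replicate. The macrophage and pan-leukocyte lists place JHO replicate 1 between JAH and the other JHO arrays, the milk list places it farthest to the right, and the cholesterol list holds the 3 JHO arrays together.

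Chemokine genes were mostly lower in JHO. Of 25 chemokines, 13 were lower and 3 higher (median -0.90), and without JHO replicate 1 these numbers were 14 and 7. Cxcl3, a neutrophil attractant, had the largest negative difference of the called genes without overlap, with clone-like symbols (such as Rik or LOC) passed over. It read 11.61, 11.29 and 11.18 in JAH and 2.82, 3.35 and 3.38 in JHO (-8.18 ± 0.19, adjusted p = 1.46e-06). Its relatives differed less. Cxcl2 read 12.89, 12.63 and 12.39 against 9.15, 10.40 and 10.42 (-2.65 ± 0.34, adjusted p = 0.00155). Cxcl1 read 13.32, 13.20 and 13.06 against 10.27, 12.02 and 11.81. In Cxcl1 and Cxcl2, JHO replicate 1 was the lowest array, and the call of Cxcl1 (-1.83 ± 0.42, adjusted p = 0.0179; -1.28 without JHO replicate 1) was lost without any of the JAH arrays.

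These 3 genes lie on chromosome 5, and the bases upstream of their starts are shown because each holds, within 100 bases of it, an NF-kB element, searched as GGGAA and TTCC with 1 base of any kind between them. The sequences are those of RefSeq (GRCm38.p6), plus strand, written 5′ to 3′, with the overlapping matches on both strands in capitals, at chr5:90891130-90891229 for Cxcl1, chr5:90903758-90903857 for Cxcl2 and chr5:90785984-90786083 for Cxcl3.
Cxcl1: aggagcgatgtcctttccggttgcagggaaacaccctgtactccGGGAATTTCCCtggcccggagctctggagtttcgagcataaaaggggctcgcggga
Cxcl2: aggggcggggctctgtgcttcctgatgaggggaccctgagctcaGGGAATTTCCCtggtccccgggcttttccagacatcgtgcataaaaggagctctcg
Cxcl3: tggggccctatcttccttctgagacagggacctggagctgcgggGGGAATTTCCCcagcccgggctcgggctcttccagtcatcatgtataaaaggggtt
The element, searched on both strands from 250 bases before to 50 after the gene start, was in 0.396% of 27025 genes, in 4 of the 18 chemokines with a promoter in the table, and in 3 of the 8 of those that were lower in JHO. In the list of NF-kB cytokines and feedback genes described next, it was in 1 of 22 with a promoter and in 1 of the 16 that were lower.

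Several CC chemokines were also measured. Ccl3, also known as MIP-1α, read 13.48, 13.29 and 13.26 in JAH and 10.33, 8.62 and 8.14 in JHO (-4.31 ± 0.50, adjusted p = 0.00102; -4.96 without JHO replicate 1). Ccl9 read 13.90, 13.85 and 13.93 against 11.06, 9.75 and 9.89 (-3.66 ± 0.32, adjusted p = 0.000306). Ccl2, the main monocyte attractant, stayed high in both sets, at 13.82, 13.91 and 13.97 against 13.14, 13.35 and 13.26 (-0.65 ± 0.10, adjusted p = 0.00373). The higher chemokines were Ccl11, Cxcl12 and Cxcl13. Ccl11, which encodes the eosinophil attractant eotaxin, read 5.90, 7.12 and 6.55 in JAH and 11.73, 10.35 and 10.28 in JHO (4.26 ± 0.44, adjusted p = 0.000647). Cxcl12, the CXCR4 ligand that fibroblasts make, read 6.24, 7.04 and 6.82 against 11.39, 9.54 and 9.60 (3.48 ± 0.49, adjusted p = 0.00239; 2.87 without JHO replicate 1).

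Cytokines and feedback genes of NF-kB, the transcription factor of acute inflammation, were lower in 18 of 27 and higher in 2, Il33 and Csf1 (median -0.70), with 19 and 4 without JHO replicate 1 and 11 lower without JAH replicate 1. Il6 read 10.18, 10.33 and 10.41 in JAH and 7.08, 7.50 and 7.51 in JHO (-2.95 ± 0.14, adjusted p = 3.02e-05). Il1a, which encodes interleukin 1α, read 9.14, 8.92 and 8.73 against 5.58, 5.05 and 5.24 (-3.64 ± 0.17, adjusted p = 2.43e-05). Csf3, the granulocyte growth factor G-CSF, differed by -2.69 ± 0.21 (adjusted p = 0.000189). Il11, an interleukin 6 relative of stromal cells, read 11.74, 11.74 and 11.26 against 6.05, 7.16 and 6.99 (-4.85 ± 0.29, adjusted p = 6.79e-05). Il11 is outside the list and was named as 1 of the 12 lowest genes without overlap, so its lack of overlap is not a result. The groups did not overlap for Il6, Il1a and Csf3 either, as for 43.9% of all genes. Tnf read 7.27, 6.81 and 6.87 against 6.51, 6.16 and 6.18, and its call (-0.70 ± 0.16, adjusted p = 0.0175) was lost without JAH replicate 1, JHO replicate 2 or JHO replicate 3. Il33, an alarmin of stromal and barrier cells, was higher at 11.07, 10.85 and 11.07 against 13.52, 13.56 and 13.65 (2.58 ± 0.10, adjusted p = 1.48e-05).

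Beside these results, the macrophage markers moved with the same sets: 13 of 19 were lower in JHO, and their mean lay between 10.51 and 10.94 in JAH and between 7.94 and 9.73 in JHO. Their part in the inflammatory genes was not tested. Of the JHO arrays, replicate 1 had the macrophage mean nearest to JAH. Among genes lower in JHO, it was the lowest JHO array for Cxcl3, Cxcl1, Cxcl2, Ccl2, Il6, Csf3 and Il11. It was the highest for Ccl3, Ccl9, Cxcl5, Il1a, Il1rn and Tnf. The NF-kB list averaged 8.67 in JHO replicate 1 and 8.76 and 8.82 in JHO replicates 2 and 3. For the chemokine list these means were 8.29, 8.12 and 8.06.

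Complement and acute phase genes divided. Of 12 complement genes, 5 were higher and 2 lower in JHO (median 0.44), and 6 and 5 without JHO replicate 1. The classical pathway proteases C1ra and C1s1, which fibroblasts secrete, differed by 1.99 ± 0.32 (adjusted p = 0.00438) and 1.51 ± 0.20 (adjusted p = 0.00173), with JHO replicate 1 the highest array for C1ra. C3ar1, a receptor on macrophages, read 11.61, 11.50 and 11.56 against 9.17, 7.17 and 6.85 (-3.83 ± 0.54, adjusted p = 0.00248; -4.55 without JHO replicate 1). Cfb, factor B of the alternative pathway, differed by -2.57 ± 0.12 (adjusted p = 2.19e-05). Of 21 acute phase and antimicrobial genes, 4 were higher and 5 lower, and 7 and 9 without JHO replicate 1, with 2 or 3 lower without any other array. Lcn2, a siderophore-binding protein, read 12.66, 12.70 and 12.76 in JAH and 13.99, 12.51 and 12.73 in JHO and was not called (adjusted p = 0.488).

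Interferon response genes were lower in JHO. Of 26, 17 were lower and 1, Ifit2, was higher (median -1.19), with 19 and 3 without JHO replicate 1 and 14 to 16 lower without any other array. Irf7, the transcription factor that amplifies the type I interferon response, read 10.14, 10.31 and 10.14 in JAH and 5.71, 7.17 and 6.93 in JHO (-3.59 ± 0.35, adjusted p = 0.000473). Usp18, an enzyme that removes ISG15 and damps the receptor, read 10.97, 10.89 and 10.81 against 6.90, 7.80 and 8.37 (-3.20 ± 0.33, adjusted p = 0.000618). Oas1a, a sensor of double-stranded RNA, read 11.87, 11.80 and 11.82 against 9.22, 8.94 and 9.00 (-2.78 ± 0.11, adjusted p = 1.12e-05). The antiviral tether Bst2 read 11.81, 11.92 and 11.71 against 9.75, 9.68 and 9.64 (-2.12 ± 0.10, adjusted p = 2.51e-05). Irf7 and Usp18 were lowest in JHO replicate 1, while Oas1a and Bst2 hardly varied within a set.

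Upstream bases of Oas1a and Bst2 are shown because both hold overlapping matches, in capitals, to the interferon-stimulated response element, searched as GAAA and GAAA with 2 bases of any kind between them. They are from RefSeq (GRCm38.p6), minus strand, at chr5:120907526-120907584 and chr8:71537542-71537641, written 5′ to 3′ towards the gene start.
Oas1a: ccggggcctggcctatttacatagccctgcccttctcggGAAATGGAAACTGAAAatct
Bst2: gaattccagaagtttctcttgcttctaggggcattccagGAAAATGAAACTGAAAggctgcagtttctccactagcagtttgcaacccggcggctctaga
On both strands, this element was found in 12 of the 22 interferon response genes with a promoter in the table and in 3.99% of all 27025 genes. It was in 8 of the 15 of those genes that were lower in JHO.

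Cholesterol synthesis had the largest share of called genes among the 44 lists. Of 18 cholesterol synthesis genes, 16 were higher and none lower in JHO (median 1.63), 15 or 16 without any 1 array. The list mean was 8.21 or less in all JAH arrays and 9.88 or more in all JHO arrays. Hmgcs1, which makes HMG-CoA at the head of the mevalonate pathway, read 9.85, 9.77 and 9.83 in JAH and 12.22, 11.90 and 11.98 in JHO (2.21 ± 0.11, adjusted p = 3.45e-05). Idi1, the isomerase of the 5-carbon building block, read 7.39, 7.59 and 7.56 against 11.08, 11.36 and 11.29, a 13.3-fold difference (3.73 ± 0.12, adjusted p = 5.74e-06). Sqle, which oxidises squalene, read 7.56, 7.66 and 7.76 against 10.65, 10.63 and 10.72 (3.01 ± 0.10, adjusted p = 6.33e-06). JHO replicate 1 stood with the other JHO arrays in each of these genes.

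Other enzymes of the pathway differed in the same direction. Cyp51, which removes a methyl group from lanosterol, read 6.97, 7.50 and 7.48 against 10.17, 10.94 and 11.06 (3.41 ± 0.26, adjusted p = 0.000164). Msmo1, the next oxidase, differed by 2.91 ± 0.12 (adjusted p = 1.56e-05) and Fdps, which builds farnesyl diphosphate, by 2.37 ± 0.16 (adjusted p = 0.000117). The genes not called were Ebp (0.17) and Dhcr7 (-0.06).

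A stretch upstream of Hmgcs1, at chr13:119690169-119690267 of RefSeq (GRCm38.p6, plus strand), is shown because it was the only 1 of the 15 list members with a promoter in the table that held the letters TCACNCCAC of a sterol regulatory element, in capitals.
Hmgcs1: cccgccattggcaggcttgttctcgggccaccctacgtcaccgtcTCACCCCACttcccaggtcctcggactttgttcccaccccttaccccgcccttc
Searched on both strands, those letters were in 1.44% of all 27025 genes. A match of letters describes the sequence and does not show a working site.

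Genes of sterol supply and of sterol export were counted apart. Of 15 genes of SREBP control and sterol uptake, 8 were higher and none lower (median 0.33). Insig1, which holds SREBP in the endoplasmic reticulum and is itself an SREBP target, read 8.08, 8.24 and 8.24 against 10.14, 10.25 and 10.39 (2.07 ± 0.11, adjusted p = 3.65e-05). Stard4, a cholesterol carrier, differed by 2.15 ± 0.15 (adjusted p = 0.000117), and Srebf2, which encodes SREBP2, by 0.96 ± 0.09 (adjusted p = 0.000433). Of 13 genes of efflux and esterification, 4 were lower and 1 higher (median 0.03), but only 2 were lower without any one array other than JHO replicate 1. The exporter Abca1 read 12.51, 12.69 and 12.78 in JAH and 11.47, 10.99 and 11.13 in JHO (-1.46 ± 0.15, adjusted p = 0.000548), and Abcg1 read 11.64, 11.66 and 11.84 against 10.25, 9.20 and 9.10 (-2.20 ± 0.29, adjusted p = 0.00172). Both exporters are also high in macrophages, whose markers were lower in the same arrays, and the part of those cells was not tested.

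Fatty acid genes followed in part. Of 21, 10 were higher and 2 lower (median 0.51). Scd1, the desaturase that makes oleate, read 10.13, 10.63 and 10.67 in JAH and 12.56, 12.49 and 12.51 in JHO (2.04 ± 0.16, adjusted p = 0.00017). Fads2, a desaturase of polyunsaturated fatty acids, read 6.41, 6.78 and 6.74 against 8.91, 8.82 and 9.00 (2.27 ± 0.13, adjusted p = 4.78e-05). Acss2, which makes acetyl-CoA from acetate, differed by 2.15 ± 0.10 (adjusted p = 3.04e-05), with the same sign in 2 of its 3 probe sets. Neither of the 2 lower genes, Elovl1 and Elovl5, was called without JAH replicate 1, 2 or 3 or JHO replicate 3, 1 was without JHO replicate 2, and 4 genes were lower without JHO replicate 1.

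Genes of mitosis were higher in JHO, while those of DNA replication were near the background. Of 31 G2/M genes, 22 were higher and none lower (median 1.11), 18 to 25 without any 1 array. Of 30 G1/S and replication genes, 5 were higher and 1 lower (median 0.09). Without JHO replicate 1 these were 7 and 4; without any other array none was lower, and 3 were higher without JAH replicate 1, JAH replicate 2 or JHO replicate 2. The G2/M list averaged 6.26, 6.83 and 7.10 in JAH and 7.70, 7.78 and 7.75 in JHO, so that JAH replicate 1 was the lowest array. Anln, anillin of the cleavage furrow, read 6.29, 7.32 and 7.75 against 8.91, 9.50 and 9.61 (2.22 ± 0.37, adjusted p = 0.00485). Cdk1, the kinase that starts mitosis, read 7.84, 8.53 and 8.93 against 9.66, 9.67 and 9.76 (1.26 ± 0.25, adjusted p = 0.01). Ube2c, which feeds mitotic proteins to degradation, differed by 1.66 ± 0.33 (adjusted p = 0.0097). Mki67, the proliferation marker Ki-67, read 7.91, 9.10 and 9.29 against 9.11, 9.12 and 9.13 and was not called (adjusted p = 0.483).

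The cell cycle genes homology region TTTGAA, through which many mitotic genes are held down outside mitosis, was in 20 of the 26 G2/M genes with a promoter in the table and in 20.2% of all 27025 genes, searched on both strands. It was in 17 of the 19 of them that were higher in JHO. The stretch of Cdk1, which carries it just before the gene start (chr10:69352913-69352972, RefSeq GRCm38.p6, minus strand, match in capitals), is shown as the example.
Cdk1: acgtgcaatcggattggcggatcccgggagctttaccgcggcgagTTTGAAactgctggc

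The receptor and pathway genes that the mouse model engages gave mixed values. Met, the HGF receptor gene, read 10.24, 10.14 and 10.09 in JAH and 8.20, 7.76 and 7.38 in JHO (-2.37 ± 0.20, adjusted p = 0.000247). Its other probe set, of 2, was not called and did not share that sign. Hgf read 7.12, 7.72 and 7.47 against 6.75, 6.92 and 6.60, and its call (-0.68 ± 0.17, adjusted p = 0.0236) was lost without JAH replicate 2 or 3 or JHO replicate 3. Hgf has 3 probe sets, and neither of the others shared the sign or was called. The probe sets are not known to tell the transgene from the mouse gene. Ctnnb1, which encodes β-catenin, read between 13.53 and 13.56 in all 6 arrays (adjusted p = 0.984), but another of its probe sets was called higher in JHO. Of 23 MET and ERK output genes, 6 were higher and 5 lower. Without JHO replicate 1 these were 10 and 8, without a single JAH array 3 were higher, and without JAH replicate 2 or 3 also 3 lower. Egr1, an early target of ERK, read 10.25, 10.22 and 10.33 against 11.70, 12.22 and 12.31 (1.81 ± 0.17, adjusted p = 0.000378). Plaur, the urokinase receptor, read 11.06, 10.83 and 10.90 against 7.74, 8.82 and 8.74 (-2.50 ± 0.27, adjusted p = 0.000799).

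Wnt target genes were higher where they were called. Of 26, 7 were higher and none lower (median 0.25), 11 without JHO replicate 1 and 4 without JAH replicate 2, JAH replicate 3 or JHO replicate 3. Axin2, the feedback gene most used as a Wnt readout, read 6.77, 6.83 and 6.96 in JAH and 7.54, 7.63 and 7.55 in JHO (0.72 ± 0.10, adjusted p = 0.00183). Apcdd1, a secreted Wnt antagonist, read 7.53, 8.14 and 8.23 against 10.94, 11.17 and 11.31 (3.17 ± 0.20, adjusted p = 8.02e-05). Ccnd1, cyclin D1, differed by 0.83 ± 0.10 (adjusted p = 0.00132) and Sox9 by 1.16 ± 0.11 (adjusted p = 0.000376). For these 4 genes the groups did not overlap, as for 43.9% of all genes.

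**Figure D4:**
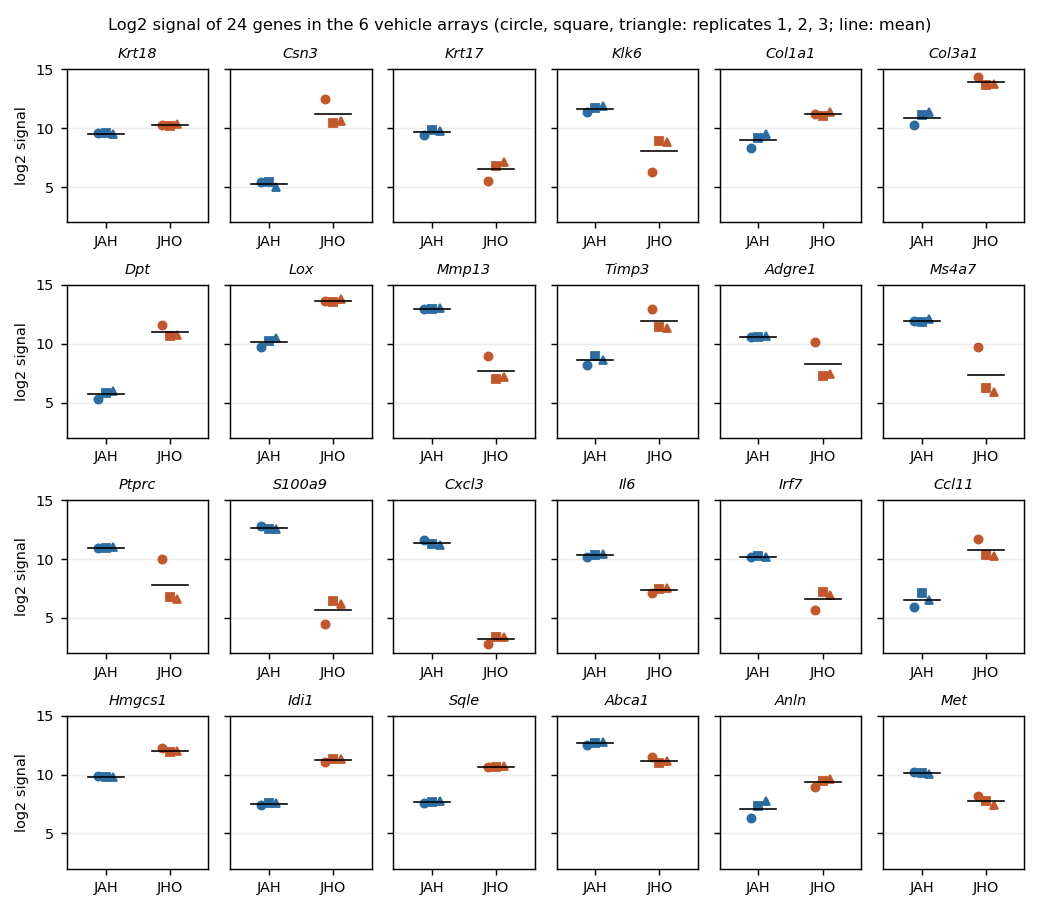
Log2 signal (vertical axis) of 24 genes in the 6 DMSO arrays, JAH in blue and JHO in orange, with replicates 1, 2 and 3 as circle, square and triangle and the mean of each set as a line. Cxcl3 falls from 11.18 to 11.61 in JAH to between 2.82 and 3.38 in JHO, Idi1 rises from at most 7.59 to at least 11.08, and for Adgre1 and Ptprc the circle of JHO replicate 1 lies near JAH.

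Among called genes without overlap, with clone-like symbols passed over, those at the ends of the range were mostly not in the lists. Mgp, an inhibitor of calcification in cartilage and vessel walls, had the largest positive difference, at 5.32, 6.62 and 7.06 in JAH and 14.43, 14.09 and 14.00 in JHO, 229-fold (7.84 ± 0.41, adjusted p = 3.65e-05). Prl8a2, a prolactin relative of the decidua, read 3.92, 4.22 and 4.23 against 11.64, 11.79 and 11.76 (7.60 ± 0.12, adjusted p = 4.87e-07). Folh1, a folate hydrolase, read at most 3.57 in JAH and at least 9.70 in JHO (6.43 ± 0.12, adjusted p = 9.91e-07). Calcb, a calcitonin gene-related peptide, read 3.76, 3.54 and 3.80 against 8.77, 11.41 and 11.20 (6.76 ± 0.64, adjusted p = 0.000416; 7.60 without JHO replicate 1). The other called genes in the top 12 were Efemp1, Klhl4, Csn3, Itgbl1, Ppp1r3c, Agtr2, Lrrc17 and Dpt, with differences from 5.30 to 6.86. Agtr2, the type 2 angiotensin receptor, read 3.19, 4.14 and 3.72 against 9.53, 8.77 and 9.01.

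At the other end, after Cxcl3, S100a9 and Pf4, came Stfa3, Spink12, Mmp13, Cd36, Clec10a, Arg2, Il11, Blnk and Ms4a7. Stfa3, a cysteine protease inhibitor of the stefin family, read 11.62, 11.02 and 11.12 in JAH and 7.08, 5.10 and 5.20 in JHO (-5.46 ± 0.50, adjusted p = 0.000382; -6.11 without JHO replicate 1). Arg2, the mitochondrial arginase, read 10.29, 10.38 and 10.15 against 6.02, 5.08 and 5.15 (-4.85 ± 0.24, adjusted p = 3.39e-05). Blnk, an adaptor of B cell and macrophage receptors, read 10.85, 10.80 and 10.74 against 6.35, 5.92 and 5.99 (-4.71 ± 0.13, adjusted p = 3.69e-06). The 24 genes at the ends were chosen among called genes whose groups did not overlap, so their lack of overlap is not a result. Their values in the 6 arrays were given no test beyond the fit over all genes.

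Part of the differences between the DMSO arrays went with the title code across treatment. In 2698 genes (14.8%) all 6 JHO arrays lay beyond all 9 JAH arrays, treated or not: 7.05% of genes above and 7.78% below. Of the genes called between the DMSO arrays this held for 1130 of the 2487 higher (45.4%) and 1260 of the 2268 lower (55.6%). Since the DMSO arrays are part of both counts, the second is not independent of the first. Prl8a2 read 3.76 to 4.48 in the 6 treated JAH arrays and 10.15 to 10.17 in the 3 arrays given PHA+ICG, and Pf4 read 12.96 to 13.18 and 6.32 to 7.09. In Csn3 and Mmp13, replicate 1 of PHA+ICG was also the highest of its group, at 13.11 and 10.38. The mean of the lys, phe and thr spike-ins likewise lay between 14.15 and 14.32 in all 9 JAH arrays and between 12.14 and 12.74 in all 6 JHO arrays.

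**Figure D5:**
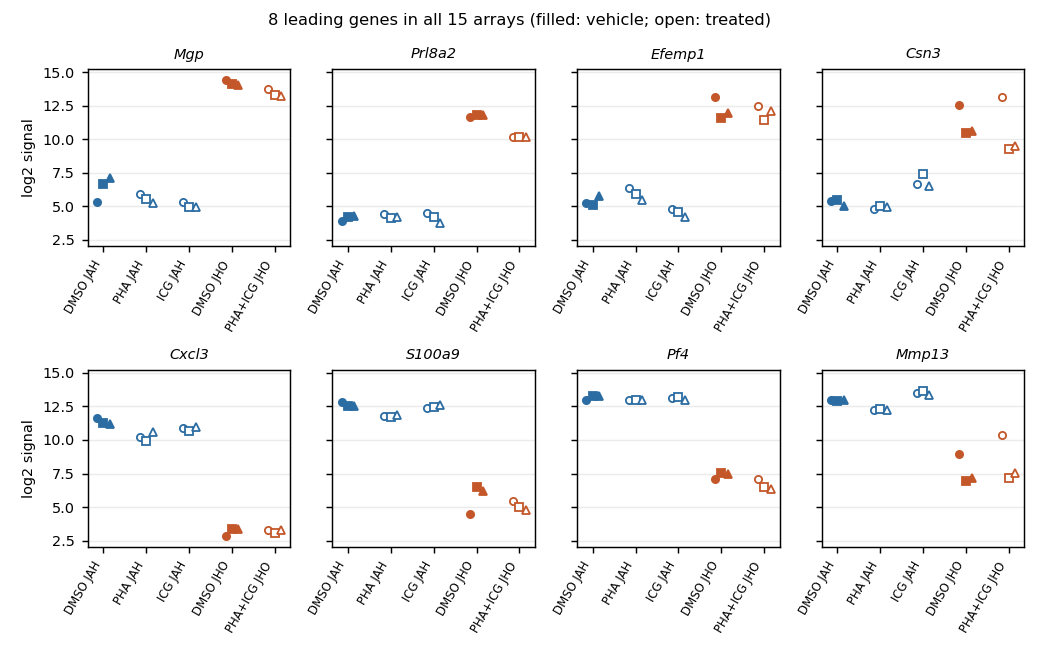
Log2 signal (vertical axis) of 8 leading genes in all 15 arrays by group (horizontal axis), filled marks for DMSO and open marks for treated arrays, blue for JAH and orange for JHO, with shape giving the replicate. In each of the 8 genes all JHO arrays lie on 1 side of all JAH arrays, for example Cxcl3 at 9.95 or more in JAH and 3.38 or less in JHO.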

How the data were processed

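Affymetrix mouse arrays were read from the deposited table of log2 probe set signals, as deposited. The submitters' processing notes name RMA and MAS5, without versions or roles, and whether both sets were normalized together is not given in the sources used here. Of 45101 probe sets, 64 were controls; 34945 had 1 symbol in the platform annotation, 932 had several and 9160 none. Each of 18193 genes was taken at its brightest probe set, by the mean of the 6 DMSO arrays. Of 924 symbols written in 44 lists, 856 matched, and the others were not analysed here. The PHA, ICG and PHA+ICG arrays entered only the alternative fit and the counts over all 15 arrays.

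A mean per set was fitted to the 6 arrays with limma 3.58.1 in R 4.3.3 (4 residual and 3.29 prior degrees of freedom), and p-values were Benjamini-Hochberg adjusted over all genes. The number of arrays limits the precision. Array values were compared by an exact two-sided permutation test. Members and lists were chosen with earlier results of these data known. Named genes were the 12 highest and 12 lowest called genes without overlap, passing over clone-like symbols (such as Rik, LOC, or Gm with a number). Added to these were up to 5 called members of each list with at least 3, and 39 of 43 further genes from a written list. The text gives a selection of all these. Agrn, Bst2, Cdk1, Cspg4, Csf1, Col18a1, Cxcl2, Cxcl12, Cxcl13, Dcn, Dhcr7, Ebp, Elovl1, Elovl5, Ifit2, Lyz2, Mmp10, Ndufa4l2, Thy1 and Tnc lie outside this rule and were chosen after their values were seen. Folds are those of the log2 signal and understate low genes. Promoters are from 250 bases before to 50 after a gene's start.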

Additional observations from a re-analysis of the deposited data

How the results depend on the processing

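Asking for at least 2-fold as well reduced the 4755 called genes to 1501, with 756 higher and 745 lower. Leaving out each array in turn gave 2772 to 7844 calls (1530 to 4432 higher, 1242 to 3412 lower), the most without JHO replicate 1. Over the same fits the lower members numbered 7 to 18 for macrophage, 8 to 17 for pan-leukocyte, 11 to 19 for NF-kB and 6 to 13 for squamous genes, and the higher milk genes 4 to 12. A fit of all 15 arrays called 5013 genes and 10 milk genes. In a fit of only the 9096 genes above the median level, 13 G2/M members were called higher. List members below that level were not tested in it. Median centring moved the spike-in differences to -1.56 (lys, phe and thr) and -0.21 (dap), because it shifts every probe set of an array alike.

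Replicate numbers did not pair the sets: deviations of same-numbered arrays correlated at -0.14, -0.16 and 0.02, and the fit with replicate number as a block called 3565 genes (1836 higher, 1729 lower). Of 215 called genes named by the rule, 176 kept the call without each array in turn.

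Signs turned only for genes that were not called. With the mean of probe sets, Xist, the RNA of the inactive X chromosome, was at 0.55 instead of -0.24, Ctnnb1 at 0.31 and Trp63 at -0.13. Trp63 was at -0.051 with quantile normalization and -0.042 with median centring. Leaving out each array in turn gave -0.013 to 0.0062 for Ctnnb1 (above 0 without JAH replicate 3, or at 0.0042 without JHO replicate 3), -0.018 to 0.16 for Trp63, -0.011 to 0.22 for Pecam1, -0.078 to 0.61 for Mki67 and -0.087 to 0.65 for Lcn2. The cause was not tested. Signal close to background limits genes such as Pecam1, Csn3 in JAH and Cxcl3 in JHO, whose folds are least certain.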

Other observations

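Amino acid and stress genes differed between the untreated sets. Of 26 ATF4 response genes, 13 were higher and 5 lower in JHO (median 0.74), and 19 were higher without JHO replicate 1. Phgdh, which opens serine synthesis, read 8.83, 8.94 and 8.98 in JAH and 10.70, 11.24 and 11.16 in JHO (2.12 ± 0.15, adjusted p = 0.00014). Asns, asparagine synthetase, differed by 1.82 ± 0.18 (adjusted p = 0.000508), while Slc7a11, the cystine importer, was lower (-1.87 ± 0.17, adjusted p = 0.000382). Of 30 glycolysis and hypoxia genes, 13 were higher and 2 lower, but 7 or 8 were higher without any one array other than JHO replicate 1, and 20 without that one. Slc2a3, a glucose transporter, read 7.90, 7.98 and 7.83 against 9.95, 11.27 and 11.39 (2.96 ± 0.35, adjusted p = 0.00115). Of 15 NRF2 targets, 4 were lower, among them Hmox1, haem oxygenase 1 (-1.19 ± 0.14, adjusted p = 0.00122).

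Imprinted and stem cell genes gave a few large differences. Of 18 imprinted genes, 7 were higher and 2 lower in JHO (median 0.35), with 1 lower without any single JAH array or without JHO replicate 3. Meg3 and Rian, neighbouring non-coding RNAs of 1 imprinted cluster, differed by 2.15 ± 0.25 and 2.26 ± 0.25 (adjusted p = 0.00103 and 0.000802), and Peg3 by -1.40 ± 0.09 (adjusted p = 8.21e-05), with the same sign in 4 of its 5 probe sets. Of 19 stem and progenitor genes, 6 were higher and 5 lower. Aldh1a1, a retinaldehyde dehydrogenase, read 3.58, 3.82 and 3.56 in JAH and 9.65, 8.13 and 8.16 in JHO (4.99 ± 0.39, adjusted p = 0.000178), while Itgb3, the integrin β3 gene, differed by -2.34 ± 0.16 (adjusted p = 0.000102). Of 17 circadian clock genes, 6 were higher and none lower, among them Per2, a clock repressor, at 6.08, 5.95 and 5.97 against 7.04, 7.25 and 7.22 (1.17 ± 0.10, adjusted p = 0.000305), and Dbp (1.33 ± 0.27, adjusted p = 0.00989).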
